A study of Mus musculus with 12 samples.

Results

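The genes described here encode the proteins of the cytosolic ribosome. They were taken from a table of liver RNA by symbol: every symbol that begins with Rpl or Rps and a digit, together with Rpsa, Rplp0, Rplp1 and Rplp2, without the Rps6k kinases and without symbols containing -ps. A mean of at least 1 RPKM (reads scaled to transcript length and library total) over the 12 libraries was required, and the transcript with the highest mean stood for its gene. Of 24007 gene symbols, 102 had such a name, and 82 remained after 10 Rps6k genes, 6 symbols with -ps and 4 genes under the minimum were left out. The members were thus chosen by symbol and by mean RPKM, so their levels are a description and carry no test. The lowest genes kept were Rps7 at 1.29, Rps13 at 1.31 and Rpl38 at 1.34 RPKM, and the highest left out was Rps21 at 0.687 RPKM. The members comprise 49 Rpl and 33 Rps symbols, of which 6 are paralogs or other proteins with a like name (Rpl7l1, Rpl22l1, Rpl36al, Rps27l, Rps4y2 and Rps19bp1).

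The livers came from male C57/Bl6 mice kept on 1 of 3 diets for 16 weeks from the age of 4 weeks, with 4 libraries per diet. HFD+ASBTi livers had a high-fat diet with 0.2% (w/w) cholesterol and 0.006% SC-435, an inhibitor of ASBT, the transporter by which the ileum takes bile acids back up. HFD livers had the same high-fat, cholesterol-containing diet without SC-435, and chow livers had chow. No library is stated to be a separate animal, so the p-values reflect variation between libraries only, and part of it may be technical. One chow column, called chow C7 here, could be matched to its group but to no single sample label.

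A ribosome has a small subunit, whose proteins are named Rps, and a large subunit, whose proteins are named Rpl, each built on ribosomal RNA. The proteins are needed in matched amounts, and their mRNAs are among the most abundant of most cells. Nearly all begin with a C followed by a run of pyrimidines, the 5′ terminal oligopyrimidine (TOP) motif, through which the kinase mTORC1 and the RNA-binding protein LARP1 tie their translation and stability to nutrients and growth signals. Their genes have left very many processed pseudogenes in mammalian genomes, which complicates the counting of short reads.

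In the promoters of these genes, 2 sequence features were more frequent than among all genes. RefSeq promoter windows (GRCm38.p6, 250 bases before to 50 after the annotated start) were found for 61 of the 82 members. CGGAAG on either strand, the core of sites for ETS factors such as GABPA, was in 42 of the 61 (68.9%), against 18.8% of 27025 genes. A C followed by pyrimidines only, with a run of at least 8 bases in all, within 50 bases of the start on the coding strand was in 50 members (82%), against 32.0% of all genes. TATAAA on either strand was in 7 members (11.5%), against 15.7% of all genes. These motifs were chosen after 11 motifs and 4 run lengths had been compared, they can overlap each other, and a match is a description of letters and not of binding. The windows below (70 bases before to 20 after the start) are shown for 4 genes that passed the test described below (Rps4x, Rpl4, Rpl5 and Rpl7l1), for 2 small-subunit genes that hold both features (Rps6 and Rps18), and for 2 members that did not share the direction of the rest (Rps27l and Rpl38). Capitals mark CGGAAG on either strand and the pyrimidine runs.
Rps4x (chrX:102189372-102189461, - strand): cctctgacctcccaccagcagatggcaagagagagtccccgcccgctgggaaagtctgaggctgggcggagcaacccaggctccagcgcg
Rpl4 (chr9:64173317-64173406, + strand): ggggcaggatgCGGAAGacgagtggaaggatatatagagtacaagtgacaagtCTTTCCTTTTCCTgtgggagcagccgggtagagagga
Rpl5 (chr5:107900458-107900547, + strand): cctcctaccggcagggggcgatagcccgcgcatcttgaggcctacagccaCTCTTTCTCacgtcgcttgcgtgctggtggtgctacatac
Rpl7l1 (chr17:46782637-46782726, - strand): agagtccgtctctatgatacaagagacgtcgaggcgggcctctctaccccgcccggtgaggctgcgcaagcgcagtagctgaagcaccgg
Rps6 (chr4:86857348-86857437, - strand): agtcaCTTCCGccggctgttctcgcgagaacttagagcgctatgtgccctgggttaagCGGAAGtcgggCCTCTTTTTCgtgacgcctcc
Rps18 (chr17:33955646-33955735, - strand): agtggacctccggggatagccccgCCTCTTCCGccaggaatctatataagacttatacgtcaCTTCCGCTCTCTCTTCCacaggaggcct
Rps27l (chr9:66946016-66946105, + strand): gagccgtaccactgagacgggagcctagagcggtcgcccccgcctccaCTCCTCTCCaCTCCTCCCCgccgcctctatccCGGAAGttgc
Rpl38 (chr11:114668510-114668599, + strand): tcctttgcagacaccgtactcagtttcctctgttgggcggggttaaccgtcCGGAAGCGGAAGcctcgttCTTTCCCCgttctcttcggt
Within these 90 bases the windows of Rps4x and Rpl7l1 held neither feature, and that of Rpl5 held a run only. The response was close with and without these 2 features. The 42 members with CGGAAG had a median log2 change of -0.21 in HFD against chow livers and the 19 without it -0.20. With a pyrimidine run (50 members) or without one (11) the medians were -0.21 and -0.18. For TATAAA the medians were -0.105 in the 7 members with it and -0.211 in the 54 without it, a difference that was not tested.

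Depth was estimated from the RPKM steps of low genes at 8980000 to 13230000 reads per library, with HFD 4 the deepest. The RPKM values had been made with the genomic span of each transcript, introns included: when the span was used as the length, 78.7% to 81.6% of the low values came out as a whole number of reads to within 0.05, and with the spliced length 8.3% to 9.3% did. Levels of different members are therefore compared below only as estimated reads per spliced kilobase. Across 6332 genes the libraries of a group correlated at 0.943 to 0.975 (Pearson's r of log2 values), and no library stood apart on that measure. In bulk liver, fewer cells of a type and less RNA per cell cannot be told apart, and RPKM gives a gene's share of the reads, not its amount per cell.

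The ribosomal protein mRNAs as a whole made up a smaller share of the reads on both high-fat diets than on chow, with 1 HFD library as an exception. They took 0.245% to 0.274% of the estimated reads in the HFD+ASBTi livers, 0.219% to 0.308% in the HFD livers and 0.282% to 0.308% in the chow livers. The sum of their RPKM was 953.6 ± 53.2 in the HFD+ASBTi livers, 939.3 ± 154 in the HFD livers and 1107 ± 47.9 in the chow livers (SD, n = 4 each). On the log2 scale, with each gene's mean over the 12 libraries set to 0, the median member lay at -0.12, -0.12, 0.01 and -0.05 in the HFD+ASBTi libraries. It lay at -0.25, -0.11, -0.08 and 0.21 in the HFD libraries, against 0.07, 0.17, 0.15 and 0.17 in the chow libraries. HFD 4 was thus above every chow library, and HFD 1 was the lowest of the 12.

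**Figure D1:**
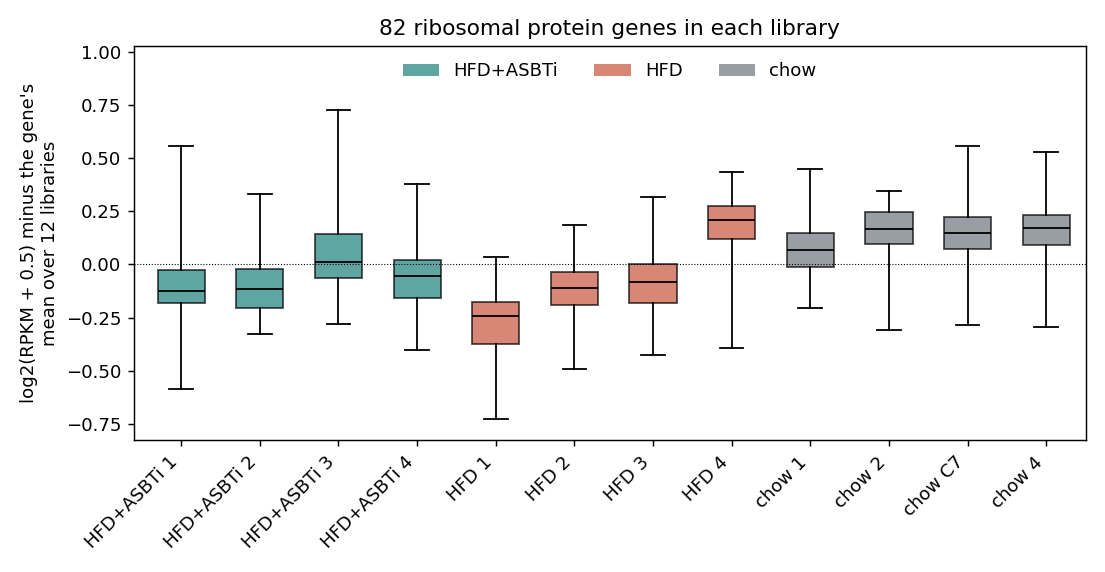
Boxes show the 82 ribosomal protein genes in each of the 12 libraries as log2(RPKM + 0.5) minus the gene's mean over all libraries (line, median; box, quartiles; whiskers, full range). The medians of HFD+ASBTi 1, 2 and 4 and HFD 1, 2 and 3 are below 0, those of the 4 chow libraries are above 0, and HFD 4 has the highest median at 0.21.

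The spread within the HFD group was carried by HFD 4 and HFD 1. HFD 4 held the highest value of its group in 76 of the 82 members and the highest of all 12 libraries in 26, while HFD 1 held the lowest of all 12 in 44. The median SD of a member on the log2 scale was 0.122 in the HFD+ASBTi group, 0.214 in the HFD group and 0.109 in the chow group. Over all 6332 tested genes that median was 0.15 in the HFD+ASBTi group, 0.139 in the HFD group and 0.114 in the chow group. HFD 4 also had the largest summed RPKM of 13 hepatocyte markers, 7280 against 5240 to 5450 in the other HFD livers, and was the deepest library; their part in its ribosomal protein values was not tested. Counts and medians of the members against HFD or chow are given below with and without HFD 4, and single genes wherever leaving it out changes the call. HFD 4 stood out by the members' own high values. Calls made without it therefore describe how much rests on that library and are no separate support for a fall.

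In the mean of the HFD livers most ribosomal protein genes lay a little below chow livers, but few passed the test singly. HFD 4 did not share this, with 54 of the 82 members above their chow mean. The members vary together from library to library, so their number is no count of independent results. The log2 change was negative in 76 of the 82 members, against 45.8% of the 6332 genes tested, and its median was -0.21, against 0.02 over all genes. That median corresponds to 0.865 times the chow level. By limma's moderated test on log2(RPKM + 0.5), with Benjamini-Hochberg adjustment over all 6332 genes and a threshold of 0.05, 3 members fell, and Rps4x and Rpl8 are described below. That is 3.66% of the members, close to the 4.45% of all tested genes called lower, and no member was called higher, against 7.66% of all genes. At an unadjusted p under 0.05, 33 members were lower, against 11.7% of all genes, and Rps27l alone was higher, against 17% of all genes.

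**Figure D2:**
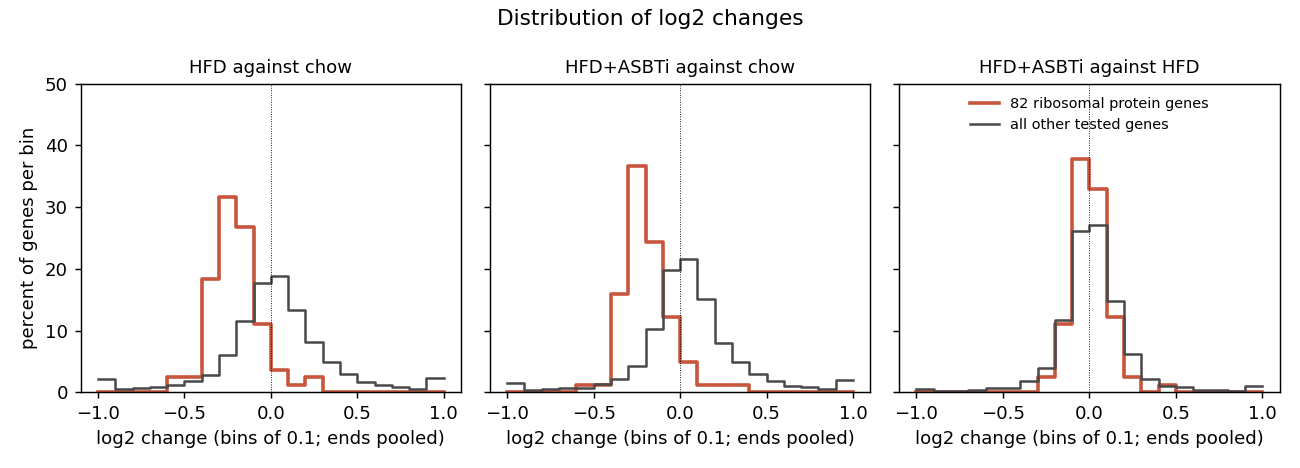
Lines give the percentage of genes in bins of 0.1 of the log2 change, for the 82 ribosomal protein genes (red) and all other tested genes (grey), in the 3 comparisons; values beyond 1 in either direction are pooled in the end bins. The members' medians are -0.21 against chow on both high-fat diets and 0.00 in HFD+ASBTi against HFD livers.

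Without HFD 4, 29 members fell (35.4%, against 5.52% of 6251 genes tested then), 77 had a negative log2 change and the median was -0.30. Leaving out the HFD library with the highest member values lowers the HFD mean and the spread, so this rise in calls was to be foreseen. Without chow 2, 1 member was called, against 2.55% of 6278 genes. With the authors' scaling replaced by median-of-ratios scaling 12 members fell (6.1% of all genes), with quantile normalization 13 (6.06%), with only genes of mean RPKM of at least 1 tested 6 (5.49% of 4173 genes) and without a variance trend 7 (4.53%). The number of called members thus rested on single libraries, while the median stayed between -0.30 and -0.17 when each of the 12 libraries was left out in turn.

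Rps4x was a small-subunit gene called in HFD livers. Rps4x had 14.1, 13.6, 13.5 and 14.7 RPKM in the HFD+ASBTi livers, 12.8, 14.4, 14.9 and 16.6 RPKM in the HFD livers and 17.5, 19.8, 19.5 and 19 RPKM in the chow livers. Rps4x, the X-linked gene of a small-subunit protein that binds ribosomal RNA, did not overlap between HFD and chow and changed by -0.36 ± 0.08 (SE, adjusted p = 0.0192), a call lost without HFD 2 (adjusted p = 0.0517) or chow 2 (adjusted p = 0.0614). Its promoter window, shown above, held neither of the features common among the members.

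Rpl8 was a large-subunit gene called in HFD livers. Rpl8 had 33.4, 36.9, 43.3 and 34.6 RPKM in the HFD+ASBTi livers, 30.6, 31.3, 36.3 and 41 RPKM in the HFD livers and 42.8, 48, 44.9 and 49 RPKM in the chow livers. Rpl8 sits beside the peptidyl transferase centre, where peptide bonds form. All HFD libraries lay below all chow libraries, with a log2 change of -0.41 ± 0.12 (SE, adjusted p = 0.0412). The call was lost when any of 8 libraries was left out, with adjusted p-values up to 0.111.

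The largest negative changes in HFD livers were those of Rpl36, Rps27 and Rpl12, and none of them passed the test with all 12 libraries. Rpl36 had 9.09, 10.3, 17.3 and 8.67 RPKM in the HFD+ASBTi livers, 7.38, 7.51, 7.5 and 10.2 RPKM in the HFD livers and 10.5, 11.3, 12.2 and 15 RPKM in the chow livers. Rpl36, a large-subunit protein, was lower in each HFD library than in any chow library, and its log2 change was -0.56 ± 0.20 (SE, adjusted p = 0.0938). Rps27 had 4.28, 4.7, 4.66 and 4.65 RPKM in the HFD+ASBTi livers, 2.91, 4.44, 4.48 and 6.61 RPKM in the HFD livers and 5.06, 6.68, 7.8 and 7.53 RPKM in the chow livers. Rps27, a small-subunit protein with a zinc finger, overlapped between HFD and chow through HFD 4, and its log2 change was -0.54 ± 0.19 (SE, adjusted p = 0.0911); it rests on a median of 52 estimated reads per library. Rpl12 had 3.96, 3.61, 5.78 and 4.98 RPKM in the HFD+ASBTi livers, 3.14, 3.7, 3.34 and 5.34 RPKM in the HFD livers and 6.11, 5.1, 5.25 and 5.47 RPKM in the chow livers. Rpl12, at the base of the stalk that receives elongation factors, overlapped through HFD 4 as well, with a log2 change of -0.47 ± 0.16 (SE, adjusted p = 0.082). Without HFD 4, Rps27 passed at a log2 change of -0.71 (limma adjusted p = 0.021) and Rpl12 at -0.62 (adjusted p = 0.0198). Rpl36 did not, at -0.67 (adjusted p = 0.0636), though it passed without HFD+ASBTi 3 (adjusted p = 0.0218) and with the 2 groups fitted alone (adjusted p = 0.036).

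The positive side held 6 members in HFD livers: Rps27l, Rpl23a, Rpl38, Rpl39, Rps29 and Rps13. Rps27l had 5.53, 4.4, 4.9 and 5.99 RPKM in the HFD+ASBTi livers, 4.69, 5.29, 5.55 and 5.81 RPKM in the HFD livers and 4.67, 4.12, 4.49 and 4.25 RPKM in the chow livers. Rps27l, a paralog of Rps27 known as a p53 target in human cells, was higher in every HFD library than in every chow library, the only member of which that held (12.4% of all genes), with a log2 change of 0.25 ± 0.10 (SE, adjusted p = 0.105). Rpl23a had 5.39, 4.82, 9.64 and 7.34 RPKM in the HFD+ASBTi livers, 5.32, 5.74, 6.51 and 7.58 RPKM in the HFD livers and 5.21, 4.81, 4.89 and 5.72 RPKM in the chow livers. Rpl23a, at the mouth of the peptide exit tunnel where the signal recognition particle docks, overlapped between the groups at 0.25 ± 0.18 (SE, adjusted p = 0.386). Rpl38 had 1.31, 1.3, 1.54 and 1.22 RPKM in the HFD+ASBTi livers, 1.07, 1.58, 1.38 and 1.81 RPKM in the HFD livers and 1.11, 1.4, 1.27 and 1.12 RPKM in the chow livers. Rpl38, known from mice for its part in the translation of Hox mRNAs, overlapped too at 0.17 ± 0.11 (SE, adjusted p = 0.321).

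**Figure D3:**
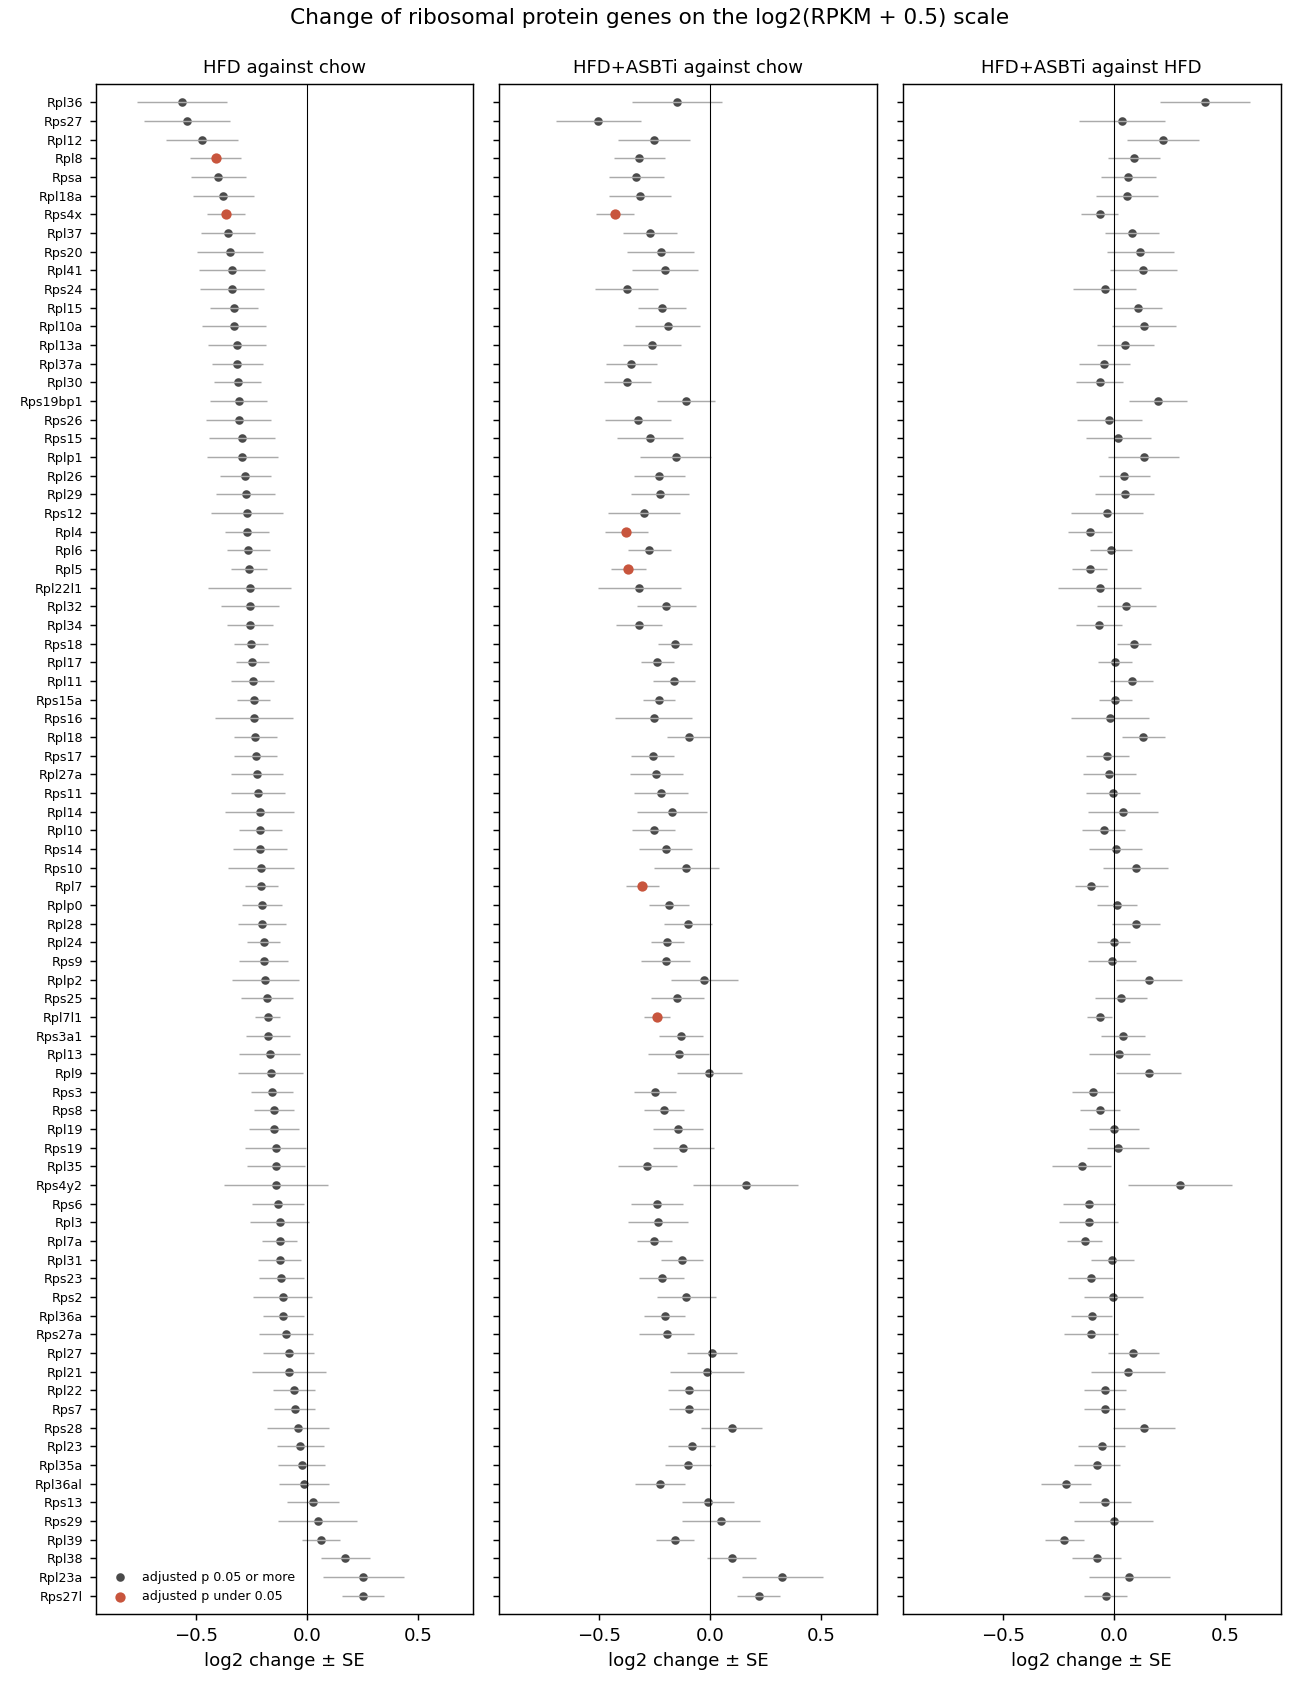
Points give the log2 change of ribosomal protein genes with its standard error in 3 comparisons, on the log2(RPKM + 0.5) scale, with genes ordered by their change in HFD against chow livers; red points passed limma's test. In both comparisons with chow most points lie below 0, and in HFD+ASBTi against HFD livers they lie on both sides of 0 with none called.

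In HFD+ASBTi livers the same modest downward shift against chow was present, with less spread among the treated libraries. The log2 change was negative in 75 of 82 members, against 42% of all genes, with a median of -0.21, against 0.03 over all genes, or 0.867 times the chow level. By limma's test 6 members fell, and Rps4x, Rpl5, Rpl7l1, Rpl7 and Rpl4 are described below. That is 7.32% of the members, against 2.31% of all tested genes called lower, and none was called higher, against 4.77% of all genes. At an unadjusted p under 0.05, 26 members were lower, against 8.07% of all genes, and Rps27l was higher, against 15.3%. In 31 members each HFD+ASBTi library was below each chow library, which held for 5.53% of all genes, whereas each HFD library was below each chow library in 9 members, against 8.89% of all genes. No member was higher in each HFD+ASBTi library than in any chow library, against 10.3% of all genes. These comparisons share the chow libraries, so a high or low chow value moves both. Without chow 2 no member was called, against 0.765% of all genes, without HFD+ASBTi 2 there was 1, against 1.3%, and without HFD 4, which enters this comparison through the shared spread, the filter and the adjustment of p, there were 10, against 2.69%. Median-of-ratios scaling gave 10, against 2.95%, and quantile normalization 12, against 3.22%.

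Rps4x, whose values are given above, did not overlap between HFD+ASBTi and chow livers. Its log2 change was -0.43 ± 0.08 (SE, adjusted p = 0.0168), and the call was lost without chow 2, at an adjusted p of 0.0552. Rps4x averaged 14 ± 0.575 RPKM in the HFD+ASBTi livers, 14.7 ± 1.55 RPKM in the HFD livers and 19 ± 1.02 RPKM in the chow livers (SD, n = 4 each).

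Among large-subunit genes, Rpl5, Rpl7 and Rpl4 fell in HFD+ASBTi livers. Rpl5 had 5.56, 5.14, 6.18 and 5.27 RPKM in the HFD+ASBTi livers, 6.08, 5.97, 5.32 and 6.69 RPKM in the HFD livers and 6.97, 7.32, 7.55 and 7.27 RPKM in the chow livers. Rpl5, which with Rpl11 and 5S ribosomal RNA forms the particle that can bind the p53 regulator Mdm2, was lower in every library of both high-fat diets than in any chow library, with a log2 change of -0.37 ± 0.08 (SE, adjusted p = 0.0213). In HFD livers its change was -0.26 ± 0.08 (SE, adjusted p = 0.0547), which did not pass. Of the 31-base windows of the Rpl5 transcript 94.8% also occurred in another annotated gene, against 32.2% for Rpl4 and 61.5% for Rpl7. The gene of origin of the Rpl5 values is therefore uncertain. Rpl4 had 23.3, 21, 23.9 and 25.5 RPKM in the HFD+ASBTi livers, 21.5, 25.6, 25.3 and 29 RPKM in the HFD livers and 28.9, 32.2, 30.5 and 30.5 RPKM in the chow livers. Rpl4, which lines the peptide exit tunnel, did not overlap between HFD+ASBTi and chow livers and changed by -0.38 ± 0.10 (SE, adjusted p = 0.0447), whereas HFD 4 reached the lowest chow library. Rpl7 had 16.1, 14.6, 15.9 and 16.2 RPKM in the HFD+ASBTi livers, 16.2, 16.3, 16.2 and 18.8 RPKM in the HFD livers and 20, 19.2, 20 and 18.8 RPKM in the chow livers. Rpl7, a large-subunit protein that contacts 5S ribosomal RNA, was likewise lower in each HFD+ASBTi than in any chow library, with a log2 change of -0.31 ± 0.07 (SE, adjusted p = 0.0335). The Rpl4 call was lost when any of 9 libraries was left out, the Rpl7 call with any of 6 and the Rpl5 call with any of 4. In HFD against chow livers these genes passed without HFD 4: Rpl5 at -0.31 (limma adjusted p = 0.0318), Rpl7 at -0.25 (adjusted p = 0.0351) and Rpl4 at -0.33 (adjusted p = 0.0432).

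Rpl7l1, also called, is a paralog of Rpl7 and acts in ribosome assembly. Rpl7l1 had 2.71, 2.46, 2.49 and 2.63 RPKM in the HFD+ASBTi livers, 2.59, 2.86, 2.84 and 2.56 RPKM in the HFD livers and 2.93, 3.11, 3.22 and 3.24 RPKM in the chow livers. It lay below chow in every library of both high-fat diets, and its log2 change was -0.24 ± 0.06 (SE, adjusted p = 0.0322) in HFD+ASBTi livers and -0.18 ± 0.06 (SE, adjusted p = 0.0677) in HFD livers. Its HFD+ASBTi libraries spread little (2.57 ± 0.12 RPKM, against 2.71 ± 0.157 RPKM in HFD and 3.13 ± 0.142 RPKM in chow livers; SD, n = 4 each). The call was lost when any of 5 libraries was left out.

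**Figure D4:**
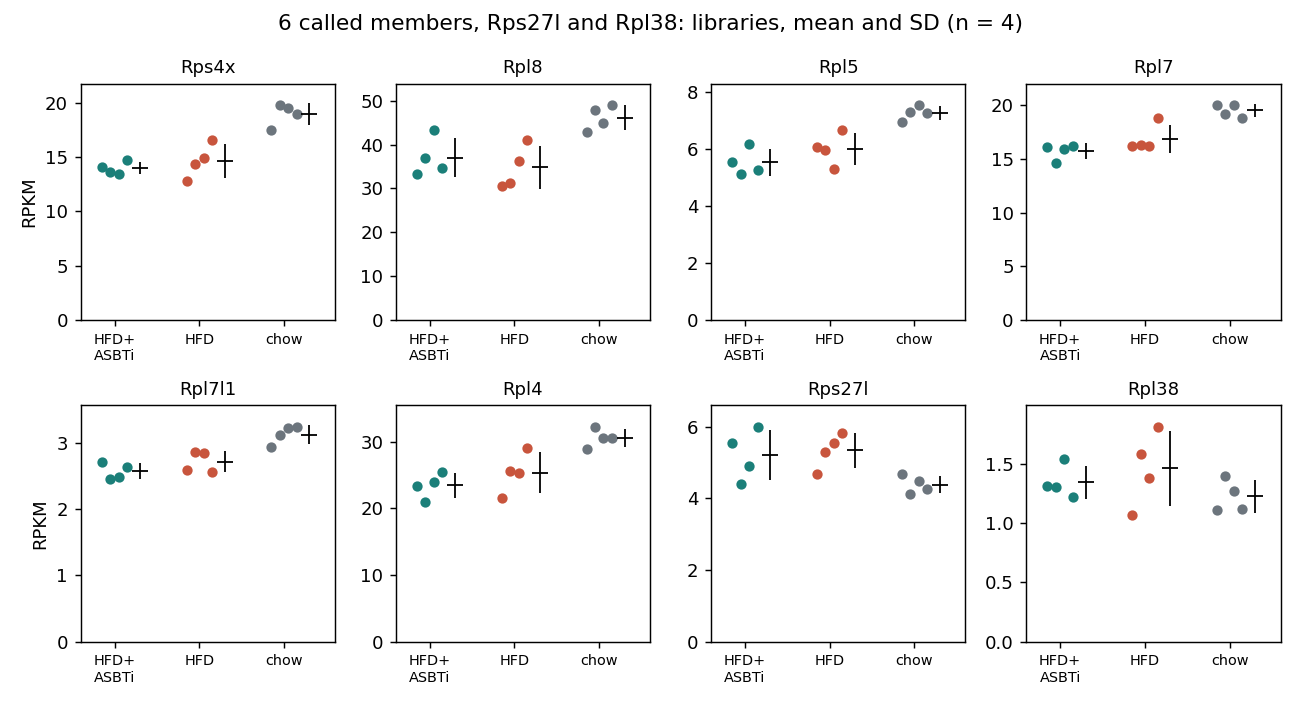
RPKM of 6 ribosomal protein genes called in a comparison with chow, and of Rps27l and Rpl38, in each library (points) with the group mean and SD (n = 4, black). Rps4x, Rpl5 and Rpl7l1 are below the chow libraries in all 8 libraries of the high-fat diets, and Rps27l in HFD livers is above chow.

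At the extremes of HFD+ASBTi against chow, Rps27 had the largest negative change, -0.50 ± 0.19 (SE, adjusted p = 0.142), with no overlap between the groups. Rpl23a had the largest positive one, 0.32 ± 0.18 (SE, adjusted p = 0.322), carried by HFD+ASBTi 3 and 4, the other HFD+ASBTi libraries lying within the chow range. For Rps27l the log2 change was 0.22 ± 0.10 (SE, adjusted p = 0.198), and HFD+ASBTi 2 lay within the chow range. Rps4y2 had 13, 11, 9.01 and 6.81 RPKM in the HFD+ASBTi livers, 5.57, 9.27, 10.9 and 6.5 RPKM in the HFD livers and 11, 7.87, 7.02 and 9.14 RPKM in the chow livers. Rps4y2, which RefSeq lists as a non-coding transcript on chromosome 6, varied more within each group than between groups, with a log2 change of 0.16 ± 0.24 (SE, adjusted p = 0.732).

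Between the high-fat diets with and without the inhibitor, the ribosomal protein genes had no common direction of difference. In HFD+ASBTi against HFD livers the log2 change was negative in 42 of 82 members, against 46.1% of all genes, and the median was 0.00 (-0.0011), against 0.01 over all genes. No member passed limma's test, the lowest adjusted p was 0.454 (Rpl39), and 0.0632% of all genes were called lower and 0.0316% higher. At an unadjusted p under 0.05, Rpl39 was lower and no member was higher, against 3.73% of all genes lower and 5.54% higher. Each HFD+ASBTi library was below each HFD library in 2 members, Rpl39 and, by less than the digits printed here, Rpl7, against 1.64% of all genes, and above in none, against 2.34%. Without HFD 4, 18 of the 82 log2 changes were negative, none passed (0.032% of 6251 genes were called lower), and the median was 0.09. The median lay between -0.08 and 0.09 when each library was left out in turn, so a shift of that size in either direction could not be told from the effect of 1 library.

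The largest differences between the high-fat groups were those of Rpl36, Rps4y2 and Rpl12 upward and Rpl39, Rpl36al and Rpl35 downward. For Rpl36 the log2 change was 0.41 ± 0.20 (SE, adjusted p = 0.576), with HFD+ASBTi 3 at 17.3 RPKM above the other 11 libraries. Rpl39 had 2.21, 1.8, 1.84 and 2 RPKM in the HFD+ASBTi livers, 2.25, 2.4, 2.27 and 2.55 RPKM in the HFD livers and 1.83, 2.29, 2.58 and 2.32 RPKM in the chow livers. Rpl39, a very small protein in the exit tunnel, was lower in each HFD+ASBTi library than in any HFD library, with a log2 change of -0.22 ± 0.09 (SE, adjusted p = 0.454), while the chow libraries spread over both ranges. Rpl36al had 31.6, 29.2, 31.6 and 35.9 RPKM in the HFD+ASBTi livers, 31.2, 36.6, 36.7 and 45.9 RPKM in the HFD livers and 36, 37.2, 39 and 38 RPKM in the chow livers. Rpl36al, an autosomal copy of the X-linked Rpl36a, overlapped between the high-fat groups only through HFD 1, at -0.22 ± 0.11 (SE, adjusted p = 0.596). Rpl35 had 1.92, 1.85, 2.58 and 1.68 RPKM in the HFD+ASBTi livers, 2.01, 2.32, 1.92 and 2.83 RPKM in the HFD livers and 2.05, 2.82, 2.68 and 2.6 RPKM in the chow livers. Rpl35, at the mouth of the exit tunnel, overlapped throughout, at -0.14 ± 0.13 (SE, adjusted p = 0.764). Since 99% of the 31-base windows of the Rpl35 transcript also occurred in another annotated gene, the origin of its values is uncertain.

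The stalk of the large subunit, built from Rplp0, Rplp1 and Rplp2, recruits elongation factors to the ribosome. Rplp0 had 25.3, 24.1, 26 and 24.9 RPKM in the HFD+ASBTi livers, 22.9, 23.5, 23.5 and 29.9 RPKM in the HFD livers and 27.6, 28.8, 28.7 and 29.4 RPKM in the chow livers. Rplp1 had 99.1, 121, 132 and 116 RPKM in the HFD+ASBTi livers, 87.8, 92.5, 105 and 147 RPKM in the HFD livers and 113, 142, 129 and 136 RPKM in the chow livers. Rplp2 had 1.62, 1.88, 2.36 and 1.79 RPKM in the HFD+ASBTi livers, 1.24, 1.65, 1.51 and 2.33 RPKM in the HFD livers and 1.89, 2.36, 1.57 and 2 RPKM in the chow livers. In all 3 genes HFD 4 was far above the other HFD libraries, and for Rplp0 and Rplp1 it was the highest of all 12. Each HFD+ASBTi library was below each chow library for Rplp0, at a log2 change of -0.19 ± 0.09 (SE, adjusted p = 0.238), and the groups overlapped for Rplp1 and Rplp2. With all 12 libraries none of the 3 was called in any comparison. Without HFD 4, Rplp0 (log2 change -0.29, limma adjusted p = 0.0199) and Rplp1 (-0.45, adjusted p = 0.0392) fell in HFD against chow livers, and Rplp2 stood at -0.32 (adjusted p = 0.132).

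Rpsa, Rps6 and Rps3 lay below chow in every HFD+ASBTi library without passing the test with all 12 libraries and the authors' scaling. Rpsa had 17.5, 17.4, 19.7 and 21.1 RPKM in the HFD+ASBTi livers, 15.2, 16.9, 18 and 22.8 RPKM in the HFD livers and 21.5, 24.5, 23.7 and 26 RPKM in the chow livers. Rpsa, also known as the laminin receptor precursor, overlapped with chow through HFD 4 and not at all in HFD+ASBTi livers, with log2 changes of -0.40 ± 0.12 (SE, adjusted p = 0.0577) in HFD and -0.33 ± 0.12 (SE, adjusted p = 0.132) in HFD+ASBTi livers. Without HFD 4 Rpsa fell in HFD against chow livers, at -0.51 (limma adjusted p = 0.0129). Rps6 had 15.3, 13, 15.3 and 15.3 RPKM in the HFD+ASBTi livers, 13.6, 15.7, 14.7 and 20.2 RPKM in the HFD livers and 16, 17.7, 17.7 and 18.3 RPKM in the chow livers. Rps6, the substrate of the S6 kinases downstream of mTORC1, was lower in each HFD+ASBTi library than in any chow library at -0.24 ± 0.12 (SE, adjusted p = 0.245). Rps3 had 9.05, 8.58, 9.86 and 9.27 RPKM in the HFD+ASBTi livers, 8.49, 9.62, 9.59 and 11.9 RPKM in the HFD livers and 10.7, 11.2, 10.9 and 11.2 RPKM in the chow livers. Rps3, at the mRNA entry channel, did not overlap between HFD+ASBTi and chow livers, with a log2 change of -0.25 ± 0.09 (SE, adjusted p = 0.137); it passed without HFD 4 (limma adjusted p = 0.0499) and with quantile normalization (adjusted p = 0.0418).

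The groups overlapped for Rps2 and Rps19. Rps2 had 51.7, 50.3, 65.7 and 43.1 RPKM in the HFD+ASBTi livers, 49.7, 51.7, 49.6 and 58.1 RPKM in the HFD livers and 64.9, 58.5, 48.9 and 53.7 RPKM in the chow livers. Rps2, also at the mRNA entry channel, overlapped between all groups, at -0.11 ± 0.13 (SE, adjusted p = 0.637) in HFD and -0.11 ± 0.13 (SE, adjusted p = 0.676) in HFD+ASBTi livers against chow. Rps19 had 2.73, 3.31, 3.59 and 3.37 RPKM in the HFD+ASBTi livers, 2.49, 3.26, 3.07 and 4.14 RPKM in the HFD livers and 2.98, 3.94, 3.29 and 4.16 RPKM in the chow livers. Rps19, the gene most often mutated in Diamond-Blackfan anaemia in humans, overlapped between all groups too, at -0.14 ± 0.14 (SE, adjusted p = 0.546) in HFD and -0.12 ± 0.14 (SE, adjusted p = 0.653) in HFD+ASBTi livers.

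Of the other large-subunit genes with well-known roles, none was called in any comparison with all 12 libraries. Rpl11 had 5.2, 4.88, 5.73 and 5.81 RPKM in the HFD+ASBTi livers, 4.37, 5.01, 5.11 and 5.91 RPKM in the HFD livers and 6.23, 5.39, 6.17 and 6.64 RPKM in the chow livers. Rpl11, the partner of Rpl5 in the 5S particle, overlapped with chow in both high-fat groups, at -0.24 ± 0.10 (SE, adjusted p = 0.123) in HFD and -0.16 ± 0.10 (SE, adjusted p = 0.346) in HFD+ASBTi livers. Rpl10 had 15.5, 12.7, 15 and 15.1 RPKM in the HFD+ASBTi livers, 13.7, 13.7, 15.7 and 17.2 RPKM in the HFD livers and 18.5, 17, 18.3 and 16.1 RPKM in the chow livers. Rpl10, added late in assembly and needed for the subunits to join, was below chow in each HFD+ASBTi library at -0.25 ± 0.10 (SE, adjusted p = 0.141). Rpl3 had 3.7, 3.55, 4.66 and 5 RPKM in the HFD+ASBTi livers, 3.74, 4.39, 4.57 and 5.78 RPKM in the HFD livers and 5.54, 5.21, 4.88 and 4.47 RPKM in the chow livers. Rpl3, close to the peptidyl transferase centre, overlapped between all groups at -0.23 ± 0.13 (SE, adjusted p = 0.327) in HFD+ASBTi against chow livers. Rpl41 had 92.1, 106, 96.8 and 95.4 RPKM in the HFD+ASBTi livers, 70.8, 80.1, 91.3 and 120.0 RPKM in the HFD livers and 96.3, 113, 119 and 122 RPKM in the chow livers. Rpl41, the shortest ribosomal protein, overlapped with chow in both high-fat groups, at -0.34 ± 0.15 (SE, adjusted p = 0.166) in HFD livers. Without HFD 4 Rpl41 fell in HFD against chow livers, at -0.48 (limma adjusted p = 0.0254), while Rpl11 (-0.31, adjusted p = 0.0516), Rpl10 (-0.27, adjusted p = 0.0818) and Rpl3 (-0.22, adjusted p = 0.26) did not pass.

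Paralog pairs could be read side by side. Rpl22 had 3.8, 4.13, 4.35 and 3.54 RPKM in the HFD+ASBTi livers, 3.45, 3.97, 4.33 and 4.61 RPKM in the HFD livers and 3.77, 4.58, 4.16 and 4.54 RPKM in the chow livers. Rpl22l1 had 1.71, 2.28, 3.28 and 3.19 RPKM in the HFD+ASBTi livers, 2.35, 2.29, 2.44 and 3.88 RPKM in the HFD livers and 3.33, 2.85, 3.42 and 3.64 RPKM in the chow livers. Rpl22 and its paralog Rpl22l1, whose mRNA Rpl22 protein is known to repress in mouse, both overlapped between all groups, and neither was called. Rpl36a had 2.25, 2.06, 2.27 and 1.8 RPKM in the HFD+ASBTi livers, 2.09, 1.93, 2.62 and 2.51 RPKM in the HFD livers and 2.41, 2.3, 2.56 and 2.69 RPKM in the chow livers. Rpl36a was below chow in each HFD+ASBTi library, as was Rpl36al, at log2 changes of -0.20 ± 0.09 (SE, adjusted p = 0.209) and -0.23 ± 0.11 (SE, adjusted p = 0.256). Reads of such near-identical copies can be assigned to either, so these values are uncertain. With the 6 paralogs and other proteins left out, the median of the 76 others was -0.21 against chow on both high-fat diets, with 3 called in HFD and 5 in HFD+ASBTi livers.

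Levels differed widely between members. As estimated reads per spliced kilobase they ran between 34.8 for Rps15a and 3250 for Rplp1, with Rpl41 at 2620 and Rps18 and Rps15 at 1220. The low Rps15a value depends on the transcript matched to it, with a spliced length of 5179 bases against a median of 814.5 over the members. Rps15a had a median of 188 estimated reads per library. Windows shared with other genes, given below, also affect this scale. The median number of estimated reads per library was 30 for Rps28 and Rps29, 37 for Rps13, 1504 for Rpl4 and 1571 for Rplp1, so the counting error is larger for Rps28, Rps29 and Rps13. Over the members, 63.2% of the 31-base windows of the median transcript also occurred in another annotated gene (0% to 99%), and 55 of 82 members had over 50% of their windows shared, 7 of them (Rpl10 among these) over 90%. With members split at that median, the log2 change in HFD against chow livers had a median of -0.21 on both sides, with 39 of 41 negative above it and 37 of 41 at or below it. Across the 82 members Spearman's rho between that log2 change and the shared percentage was 0.04, and with the mean RPKM it was -0.40; these points share their libraries, and the values are a description.

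The members varied together from library to library. With the group means removed, the median correlation between a pair of members over the 12 libraries was 0.53 (Pearson's r), and 92.8% of pairs were above 0, against 0.03 and 53.1% for pairs among all tested genes. HFD 4, the highest of its group in 76 members, and HFD 1, the lowest in 60, enter that value. The pairs among all genes were not matched to the members for level or for shared windows. With the group means kept, Rplp0 (0.958) and Rps26 (0.951) followed the mean of the other members most closely. Rps27l (-0.26), Rps4y2 (-0.11), Rpl23a (0.09), Rps29 (0.15), Rps13 (0.20), Rps28 (0.24), Rpl39 (0.26) and Rpl38 (0.28) followed it least. Of the members with a positive change in HFD against chow livers, all 6 are among those 8; differences between groups enter both measures. The members that followed least include Rps28, Rps29, Rps13 and Rpl38, which have few reads.

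Outside the members, the 5 genes whose log2 values most resembled the members' mean over the 12 libraries were 1110065P20Rik (r = 0.958), Wdr89 (0.953), Rplp2-ps1 (0.953), Gm6402 (0.94) and Gm9846 (0.926). Their log2 changes in HFD against chow livers lay between -0.54 (Gm9846) and -0.22 (Wdr89), and none was called with all 12 libraries; without HFD 4 all 5 were, at -0.71 (Gm9846) to -0.35 (Wdr89), with limma adjusted p-values up to 0.0386 (Rplp2-ps1). Rplp2-ps1 is listed as a pseudogene of Rplp2 and averaged 83.8 ± 9.99 RPKM in the HFD+ASBTi livers, 83.2 ± 22.6 RPKM in the HFD livers and 99.5 ± 4.17 RPKM in the chow livers (SD, n = 4 each). Reads of a gene and its pseudogene copy can be assigned to either, so the likeness of -ps symbols may not be independent of the members. Their RPKM cannot be set against that of the parent genes, since RPKM uses the genomic span, for Rplp2 4.37 times its spliced length. Of the -ps symbols that the rule left out, Rps15a-ps4 was called lower in HFD+ASBTi against chow livers, at a log2 change of -0.46 (limma adjusted p = 0.0192). Rps15a-ps4 averaged 22.2 ± 2.18 RPKM in the HFD+ASBTi livers and 30.6 ± 2.03 RPKM in the chow livers (SD, n = 4 each).

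Fau and Gnb2l1, ribosomal proteins whose symbols do not follow the pattern, showed values in the same range. Fau had 14.7, 15, 16.6 and 12.1 RPKM in the HFD+ASBTi livers, 13, 13.9, 14.8 and 19.5 RPKM in the HFD livers and 17.5, 21.4, 18.7 and 20.7 RPKM in the chow livers. Gnb2l1 had 12.1, 11.9, 15.5 and 12.6 RPKM in the HFD+ASBTi livers, 12.3, 12.9, 12.6 and 15.6 RPKM in the HFD livers and 15.3, 16.2, 16.1 and 15.2 RPKM in the chow livers. Fau encodes a ribosomal protein fused to a ubiquitin-like protein, and Gnb2l1 encodes RACK1, a scaffold on the small subunit. HFD 4 was the highest HFD library in both. Their log2 changes in HFD against chow livers were -0.36 for Fau and -0.23 for Gnb2l1, and neither was called in any comparison with all 12 libraries (lowest limma adjusted p = 0.0945). Without HFD 4 Fau fell against chow in HFD livers (log2 change -0.48, adjusted p = 0.0251) and in HFD+ASBTi livers (-0.41, adjusted p = 0.0422).

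Other genes of translation were compared as lists. Of 37 initiation and elongation factors, 32 were tested, and 3 of them, Eef1d, Eif4h and Eef2, fell in HFD livers (4.45% of all genes), with a list median of -0.10 (0.02 over all genes). The translocase Eef2 averaged 91.2 ± 6.08 RPKM in the HFD+ASBTi livers, 84.6 ± 6.25 RPKM in the HFD livers and 103 ± 3.32 RPKM in the chow livers (SD, n = 4 each), and its log2 change in HFD livers was -0.28 (limma adjusted p = 0.0495). Without HFD 4 that p was 0.0741, and 4 factors fell (5.52% of all genes then) and 1 rose (7.41%). In HFD+ASBTi against chow livers Eif6, which keeps the subunits apart until assembly is complete, was the 1 factor that fell (log2 change -0.30, adjusted p = 0.0474, against 2.31% of all genes). The list median there was -0.12, and without HFD 4 there were 2 factors that fell (2.69% of all genes then). Of 39 genes of ribosome assembly 23 were tested, and 2 fell in HFD livers, against the same 4.45%: Nop16 (log2 change -0.48, adjusted p = 0.0147) and the helicase Ddx21 (-0.25, adjusted p = 0.0196). None of them was called in HFD+ASBTi livers, where the list median was -0.07. In HFD livers that median was -0.05, and -0.15 without HFD 4, with 2 called either way (5.52% of all genes fell without HFD 4).

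Among 23 regulators of mTORC1 and TOP mRNAs 15 were tested, 3 fell in HFD livers (4.45% of all genes) and 2 in HFD+ASBTi livers (2.31% of all genes); the list medians were -0.08 and -0.01. Eif4ebp3 had 6.05, 5.25, 9.6 and 6.91 RPKM in the HFD+ASBTi livers, 4.08, 4.11, 4.95 and 10.8 RPKM in the HFD livers and 17, 19.9, 15.6 and 17.8 RPKM in the chow livers. Eif4ebp3, a repressor of cap-dependent initiation, fell by 1.59 on the log2 scale in HFD livers (limma adjusted p = 0.00496) and by 1.31 in HFD+ASBTi livers (adjusted p = 0.0192), with no overlap with chow in either. Ddit4 had 2, 1.65, 2.87 and 1.04 RPKM in the HFD+ASBTi livers, 0.863, 1.2, 2.18 and 2.38 RPKM in the HFD livers and 12.6, 4.92, 3.82 and 6.31 RPKM in the chow livers. Ddit4, a stress-induced inhibitor of mTORC1, fell by 1.72 in HFD livers (adjusted p = 0.0126) and by 1.56 in HFD+ASBTi livers (adjusted p = 0.0298). Larp1 had 1.3, 1.24, 1.34 and 1.27 RPKM in the HFD+ASBTi livers, 1.18, 1.15, 0.974 and 1.05 RPKM in the HFD livers and 1.37, 1.35, 1.39 and 1.35 RPKM in the chow livers. Larp1, which binds TOP mRNAs, fell in HFD livers (log2 change -0.23, adjusted p = 0.0141) and lay between the other groups in HFD+ASBTi livers. Without HFD 4, 14 were tested, and 3 fell (5.52% of all genes then) and 1 rose (7.41%) in HFD livers. The mRNA of a regulator says nothing of the activity of the kinase.

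The ribosomal proteins of mitochondria did not share the shift. Of 79 such genes, 61 were tested; their median log2 change was 0.02 in HFD against chow livers, 25 were negative, and Mrpl45 and Mrpl49 rose, at 0.27 (limma adjusted p = 0.014) and 0.20 (adjusted p = 0.0285), against 7.66% of all genes called higher. Both rose in HFD+ASBTi against chow livers too, at 0.28 and 0.30 (4.77% of all genes), with a list median of 0.01 (0.005). Of 88 oxidative phosphorylation subunits 73 were tested, with a median of 0.05 in HFD livers, 2 called higher (7.66% of all genes) and none lower (4.45%). Without HFD 4 the HFD median was -0.01 for the mitochondrial ribosomal proteins, with 2 called higher (7.41% of all genes then). For oxidative phosphorylation it was -0.004, with 1 called lower (5.52% of all genes) and none higher. In HFD 4 these lists were also at their highest, at 0.11 for the mitochondrial ribosomal proteins and 0.14 for oxidative phosphorylation on the centred log2 scale.

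**Figure D5:**
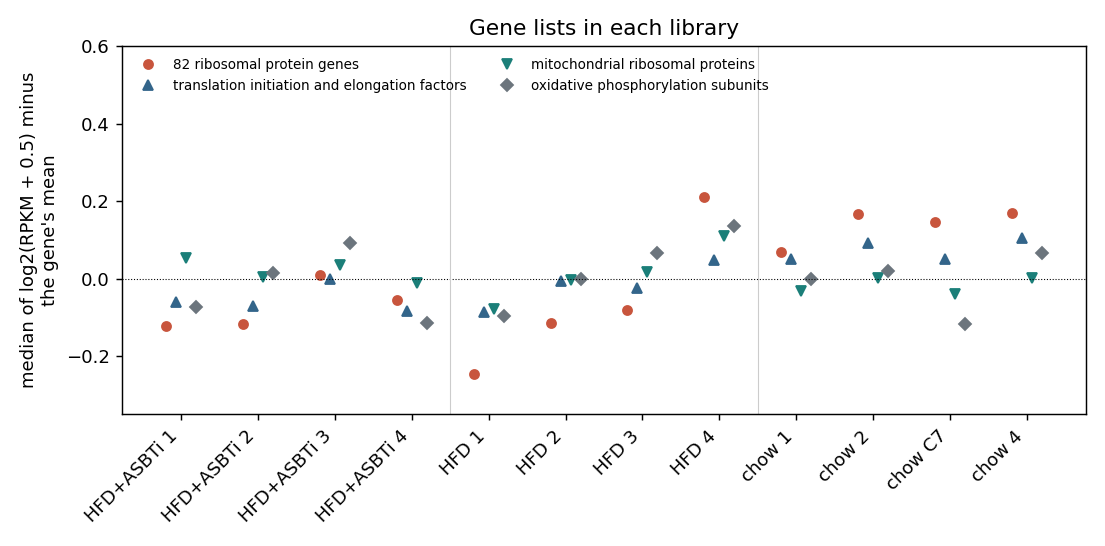
Points give, for each library, the median over a gene list of log2(RPKM + 0.5) minus each gene's mean over the 12 libraries, for the cytosolic ribosomal protein genes and 3 other lists. The ribosomal protein genes are above 0 in the 4 chow libraries and HFD 4 and near 0 in HFD+ASBTi 3, while the mitochondrial ribosomal proteins stay within -0.08 to 0.11 in all 12.

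Markers of other cells moved with diet in part. The 13 hepatocyte markers were all detected, summing to 5200 to 5970 RPKM in the HFD+ASBTi livers, 5240 to 7280 in the HFD livers and 5210 to 5650 in the chow livers; 3 fell in HFD livers (4.45% of all genes) and 2 in HFD+ASBTi livers (2.31%). Without HFD 4, 5 fell in HFD livers (5.52% of all genes then), with a list median of -0.27, against -0.17 with it. Of 5 red blood cell markers tested, 4 rose on both high-fat diets (7.66% of all genes in HFD and 4.77% in HFD+ASBTi livers), and the sum over 7 was 147 to 287 RPKM in the HFD+ASBTi livers, 168 to 301 in the HFD livers and 28.8 to 139 in the chow livers. Of 8 macrophage markers tested, 1 rose on each high-fat diet, and the sum over 12 was 31.7 to 53 RPKM in the HFD+ASBTi livers, 32.8 to 41.6 in the HFD livers and 21 to 49.8 in the chow livers. Of 4 adipose markers tested of 8, Cidec (log2 change 1.89, limma adjusted p = 0.0128) and Cfd (2.52, adjusted p = 0.0187) rose in HFD livers, against 7.66% of all genes. Pck1, which hepatocytes also express, fell on both high-fat diets, averaging 140 ± 40 RPKM in the HFD+ASBTi livers (limma adjusted p = 0.00924), 181 ± 57.8 RPKM in the HFD livers (adjusted p = 0.0192) and 351 ± 35.4 RPKM in the chow livers (SD, n = 4 each). The sum over the 8 was 102 to 188 RPKM in the HFD+ASBTi livers, 134 to 273 in the HFD livers and 320 to 393 in the chow livers. Markers of cholangiocytes (6, 1 tested), of stellate cells and fibroblasts (10, 3 tested) and of endothelium (10, 2 tested) had none called. Cholangiocyte markers summed to 3.49 to 6.09 RPKM in the HFD+ASBTi livers, 3.67 to 10.8 in the HFD livers and 3.52 to 4.22 in the chow livers. Stellate cell and fibroblast markers summed to 1.78 to 4.04 RPKM in the HFD+ASBTi livers, 1.91 to 5.54 in the HFD livers and 2.11 to 3.93 in the chow livers. Endothelial markers summed to 4.15 to 8.38 RPKM in the HFD+ASBTi livers, 3.94 to 6.07 in the HFD livers and 5.52 to 7.44 in the chow livers. Apart from endothelium, highest in HFD 3, every list of cell markers had its largest sum of the HFD group in HFD 4. The adipose sum there was mostly Pck1, at 264 RPKM. Cidec was also highest in HFD 4, at 5.39 RPKM, but Cfd was 1.92 RPKM there, against 6.65 in HFD 2 and 6.47 in HFD 3. Fabp4 was 1.71 RPKM in HFD 4 and 1.72 RPKM in HFD 2. The median of the adipose list on the centred log2 scale was 0.65 in HFD 4 and 1.04 in HFD 2 and HFD 3. The 9 markers of T, B and NK cells summed to at most 0.696 RPKM in any library, and none passed the filter. No marker of these lists was at 0 in all libraries, and their part in the ribosomal protein values was not tested.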

How the data were processed

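Liver polyA RNA was sequenced from TruSeq libraries, per the labels' protocols. The authors deposited RPKM values for 33763 RefSeq transcripts in 12 libraries. Bowtie 0.12.7 and build mm9 are named, per the submitters' processing notes. What counted the reads, with which annotation and filters, is not given in the sources used here. The ribosomal protein members, gene lists and tests were chosen with earlier results of these data known.

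The transcript with the highest mean stood for each symbol. Genes with at least 0.5 RPKM in at least 4 of 12 libraries (6332, all 82 members among them) were fitted with limma 3.58.1 (R 4.3.3; trend, 9 residual degrees of freedom) on log2(RPKM + 0.5), which understates changes of low genes. P-values were two-sided and Benjamini-Hochberg adjusted over all 6332 genes at 0.05. On simulated data the same steps were tested. Depth is estimated from value steps, so read numbers cover counting error only. Python 3.11.15 and pandas 2.3.3 did the rest.

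Genes named with values were called members (at most 8 per comparison), the 3 largest changes each way, and a fixed panel of 20. At most 3 genes per list were named, by smallest adjusted p. Scaling, filters, pseudocounts, transcript choice and left-out libraries were varied. Some named genes are not reported here; counts and medians over all members include them.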

Additional observations from a re-analysis of the deposited data

Results flagged for a closer look

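Of 96 groups of 4 libraries examined (32 named members in 3 groups), 6 held a library whose gap to the nearest other exceeded Dixon's critical value as a share of the range. Chance gives that in about 1 in 20 groups.

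HFD 4 was the library in 4 of them. Rplp0 stood at 29.9 RPKM there, against 22.9 to 23.5 RPKM in the other HFD libraries. Rpl36 stood at 10.2 RPKM, against 7.38 to 7.51 RPKM. Rpl7 stood at 18.8 RPKM, against 16.2 to 16.3 RPKM, and Rpl22l1 at 3.88 RPKM, against 2.29 to 2.44 RPKM.

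The other 2 were low values in HFD+ASBTi livers. Rps6 stood at 13 RPKM in HFD+ASBTi 2, with 15.3 RPKM in each of the other libraries of its group. Rps27 stood at 4.28 RPKM in HFD+ASBTi 1, against 4.65 to 4.70 RPKM.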

How the results depend on the processing

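Under every setting run, in each of the 3 comparisons, the members' median log2 change moved by less than 0.12. That bound is the within-group SD of the members' median log2 level. It is wide beside medians of -0.21 against chow, so staying within it says little. The HFD group widened it, with an SD of 0.192, against 0.063 in the HFD+ASBTi and 0.048 in the chow group. No member passed in HFD+ASBTi against HFD livers under any setting. Counts of members called lower moved. In HFD against chow livers the count was 3; it was 6 with genes of mean RPKM of at least 1, 7 without the variance trend, 12 with median-of-ratios scaling and 13 with quantile normalization, and 1 to 29 with a library left out. In HFD+ASBTi against chow livers it was 6; it was 10 with median-of-ratios scaling and 12 with quantile normalization, and 0 to 10 with a library left out. The cause was not tested.

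Same-numbered HFD+ASBTi and HFD libraries shared only a number: their deviations correlated at 0.04 to 0.07. With the replicate block in that comparison, 0 members were called and the median was -0.0011, while over all genes 2 were called lower and 1 higher, against 4 and 2 without it. Genes with few estimated reads (30 per library for Rps28 and Rps29) limit what small changes can be told apart.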
